A study of Mus musculus with 9 samples.

Results

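The nuclear genes for the machinery of oxidative phosphorylation were followed in primary mouse hepatocytes given tunicamycin, with and without the cyclooxygenase 2 gene. The genes were taken by name from the protein-coding genes outside the mitochondrial genome: names starting with Nduf, Uqcr, Atp5, Cox4, Cox5, Cox6, Cox7 or Cox8, together with Sdha, Sdhb, Sdhc, Sdhd, Cyc1 and Cycs. The rule found 96 entries with 95 symbols among 54532 genes, and it used no measured value. They were sorted into 7 core and 29 accessory subunits of complex I, 4 subunits of complex II, 10 of complex III with cytochrome c, 12 of complex IV and 17 entries for ATP synthase. The names also caught 8 isoforms of other tissues or of low oxygen, and 9 entries that are not subunits: 8 assembly factors of complex I (the Ndufaf genes) and Atp5s.

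The 9 libraries form 3 groups of 3. Cells labelled WT came from COX-2fl/fl/Alb-Cre- littermates, which carry the floxed gene without the recombinase, and received either DMSO (WT DMSO) or tunicamycin (WT Tu). Cells labelled COX-2 CKO came from COX-2fl/fl/Alb-Cre+ mice and received tunicamycin (CKO Tu). The albumin promoter that drives this Cre is active in hepatocytes, and deletion in other liver cells was not measured. All mice were of C57BL/6 background and described as male, with no age in years or weeks in the labels. Every culture was held in 1% FBS for 2 hours before 24 hours with DMSO or 6 μmol/L tunicamycin, which blocks protein N-glycosylation and loads the endoplasmic reticulum with unfolded protein. Knockout cells with DMSO were not analysed here, so an effect of genotype without tunicamycin could not be measured.

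Oxidative phosphorylation makes most of the ATP of a hepatocyte. Complexes I and II pass electrons from NADH and succinate to ubiquinone, complex III passes them on to cytochrome c, and complex IV gives them to oxygen; complexes I, III and IV pump protons, and ATP synthase (complex V) uses the gradient to make ATP. The core subunits of complex I hold the flavin and the iron-sulfur clusters or the quinone site, while accessory subunits surround and stabilise them. Complexes I, III, IV and V also contain subunits encoded in mitochondrial DNA, so their assembly joins products of both genomes. Transcription factors of the NRF1, GABPA, YY1 and ERR families are known to act on many of the nuclear genes.

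Between 14897358 and 16001484 fragments were assigned to genes in each library. Whether libraries of 1 group stem from different mice is not said in the labels, and p-values therefore reflect only how these libraries vary, which may be technical variation. Ptgs2, the gene for cyclooxygenase 2, was covered by 0, 13 and 8 fragments in the WT DMSO libraries, by 8, 5 and 5 after tunicamycin in WT, and by 1, 1 and 2 in the knockout, too few to check the deletion well. Xist had 20659 to 33657 fragments in the WT libraries and 0, 3 and 0 in the CKO libraries, and 4 Y-linked genes (Uty, Kdm5d, Eif2s3y and Ddx3y) had none in any WT library and 371 to 1996 in the CKO libraries. These levels go against the label of males in both genotypes, and genotype and sex cannot be told apart in any comparison with CKO Tu. Of the 96 genes, 3 lie on the X chromosome: Ndufa1, Ndufb11 and Cox7b.

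One library stood apart in these genes. WT Tu replicate 1 had 0.72% of its fragments in the 96 genes, against 0.813% and 0.792% in WT Tu replicates 2 and 3, 0.875% to 0.923% in WT DMSO and 0.753% to 0.762% in CKO Tu. Of the 90 genes that were tested, 14 (15.6%) were more than 0.5 lower on the log2(FPKM + 1) scale in this library than in the mean of the other WT Tu libraries, against 6.37% of all genes tested. The lowest was Atp5k, a small membrane subunit of ATP synthase, at 4.45 FPKM (fragments normalised to gene length in kilobases and to library size) against 34.1 and 37.2. Atp5o, Ndufa3 and Ndufs6 were next, at 7.23, 11.96 and 14.7 FPKM against 21.9 to 23.7, 26.4 to 29.2 and 27.4 to 39.4. Across all genes tested, the deviation of this library went down with the GC content of the transcript (Spearman's rho -0.484 over 11848 genes of these 3 libraries) and up with gene length (rho 0.196); over the 90 genes the values were -0.25 and 0.345. With all libraries, the log2 change from WT DMSO to WT Tu also went down with GC content (rho -0.344 over 11848 genes). The rho was 0.0929 for CKO Tu against WT Tu and -0.173 for CKO Tu against WT DMSO. Whether GC content or length set these changes or the deviation of WT Tu replicate 1 was not tested. The main counts are given with and without WT Tu replicate 1, as are changes of described members whose call turned on it. Without it the WT Tu group has 2 libraries, which are assumed to vary like those of the other groups.

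**Figure D1:**
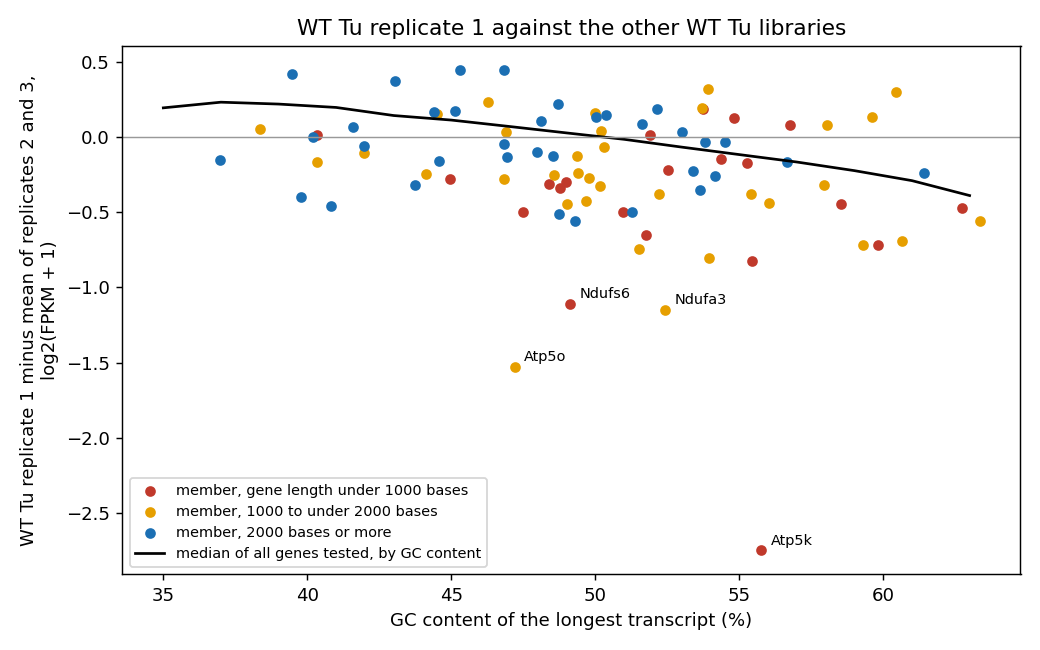
Deviation of WT Tu replicate 1 from the mean of WT Tu replicates 2 and 3 on the log2(FPKM + 1) scale (vertical axis) against GC content of the longest transcript in percent (horizontal axis). Each point is one of the 90 tested genes, coloured by gene length, and the black line is the median of all genes tested in bins of GC content. Atp5k, at -2.75, lies lowest, and the line falls below 0 at high GC content.

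With FPKM as deposited, few of these genes were called with tunicamycin in WT cells. Of 90 tested, 1 rose (Cox7a2), 9 fell (among them Ndufv1, Ndufa9, Ndufb6, Cyc1, Uqcr11, Cox4i2, Atp5d and Ndufaf5) and 80 did not pass the test (limma, Benjamini-Hochberg adjusted p under 0.05 over all 11858 genes tested). That was 11.1% of the 90, below the 33.6% of all genes called in the same comparison, of which 17.7% were higher and 15.9% lower. The median log2 change was -0.11, against -0.0015 over all genes tested. The groups did not overlap for 5 genes that were higher and 22 that were lower in WT Tu, against 23.9% and 22.8% of all genes. Without WT Tu replicate 1, 4 were higher (Cox7a2, Ndufb11, Ndufb2 and Sdhb) and 14 lower, beside 17.6% and 14.9% of all genes; 9 of the 10 calls were kept (Ndufb6 was lost) and the median was -0.04. Without WT Tu replicate 2 the lower count was also 14 (14.6% of all genes), and without WT DMSO replicate 1, 2 or 3 it was 4, 3 and 4 (12.3%, 11.8% and 11.3%). The count of lower genes also turned on the scaling. It was 18 after upper-quartile scaling (20% of all genes), 25 after quantile normalization (18.2%) and 34 after scaling to total fragments (26.2%). Scaling to total fragments moved the median of all genes to -0.11 and that of these genes to -0.24. After quantile normalization and after scaling to total fragments, the share called lower was thus larger among these genes than among all genes.

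Between CKO Tu and WT Tu, 6 were higher (Ndufa9, Ndufb11, Ndufv3, Ndufa4, Ndufa4l2 and Atp5h) and 15 lower. The lower genes were Ndufs3, Ndufs7, Ndufs8, Ndufa10, Sdhc, Uqcrc1, Uqcrc2, Cox4i1, Cox5a, Cox7c, Atp5a1, Atp5b, Atp5mpl, Ndufaf1 and Ndufaf7. Together they made 23.3% of the 90, against 38.3% of all genes called (18.7% higher and 19.6% lower). The median change was 0.0004, against -0.0021 over all genes. Groups did not overlap for 11 genes above and 18 below, beside 25% and 26.2% of all genes. Without WT Tu replicate 1 the counts were 6 higher and 23 lower, beside 20% and 21.2% of all genes, with 19 of the 21 calls kept; Cox7c and Ndufaf1 were lost, and the median was -0.07. With all libraries 1 gene, Ndufa9, was called in both comparisons, as lower with tunicamycin and higher in CKO Tu than in WT Tu. Without WT Tu replicate 1 there were 6: Ndufa9, Cyc1, Uqcrc1, Ndufv1 and Atp5d, the last 4 lower in both, and Ndufb11, higher in both. The 2 comparisons share the WT Tu libraries.

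With FPKM as deposited, the share of genes called was below that of all genes, and the part of the spread between replicates in this was not tested. The median coefficient of variation between replicates was 5.17% in WT DMSO, 11.1% in WT Tu and 4.09% in CKO Tu for the 90 genes, against 8%, 11.2% and 6.79% for all genes tested. Their fragments per library ran from 3 in Cox4i2 to 16195 in Atp5b, with a median of 877. The summed level of all 96 entries was 4979 ± 152 FPKM (SD, n = 3) in WT DMSO, 4609 ± 346 in WT Tu and 4523 ± 10.3 in CKO Tu. In bulk RNA, fewer cells of a type and less RNA per cell cannot be told apart.

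**Figure D2:**
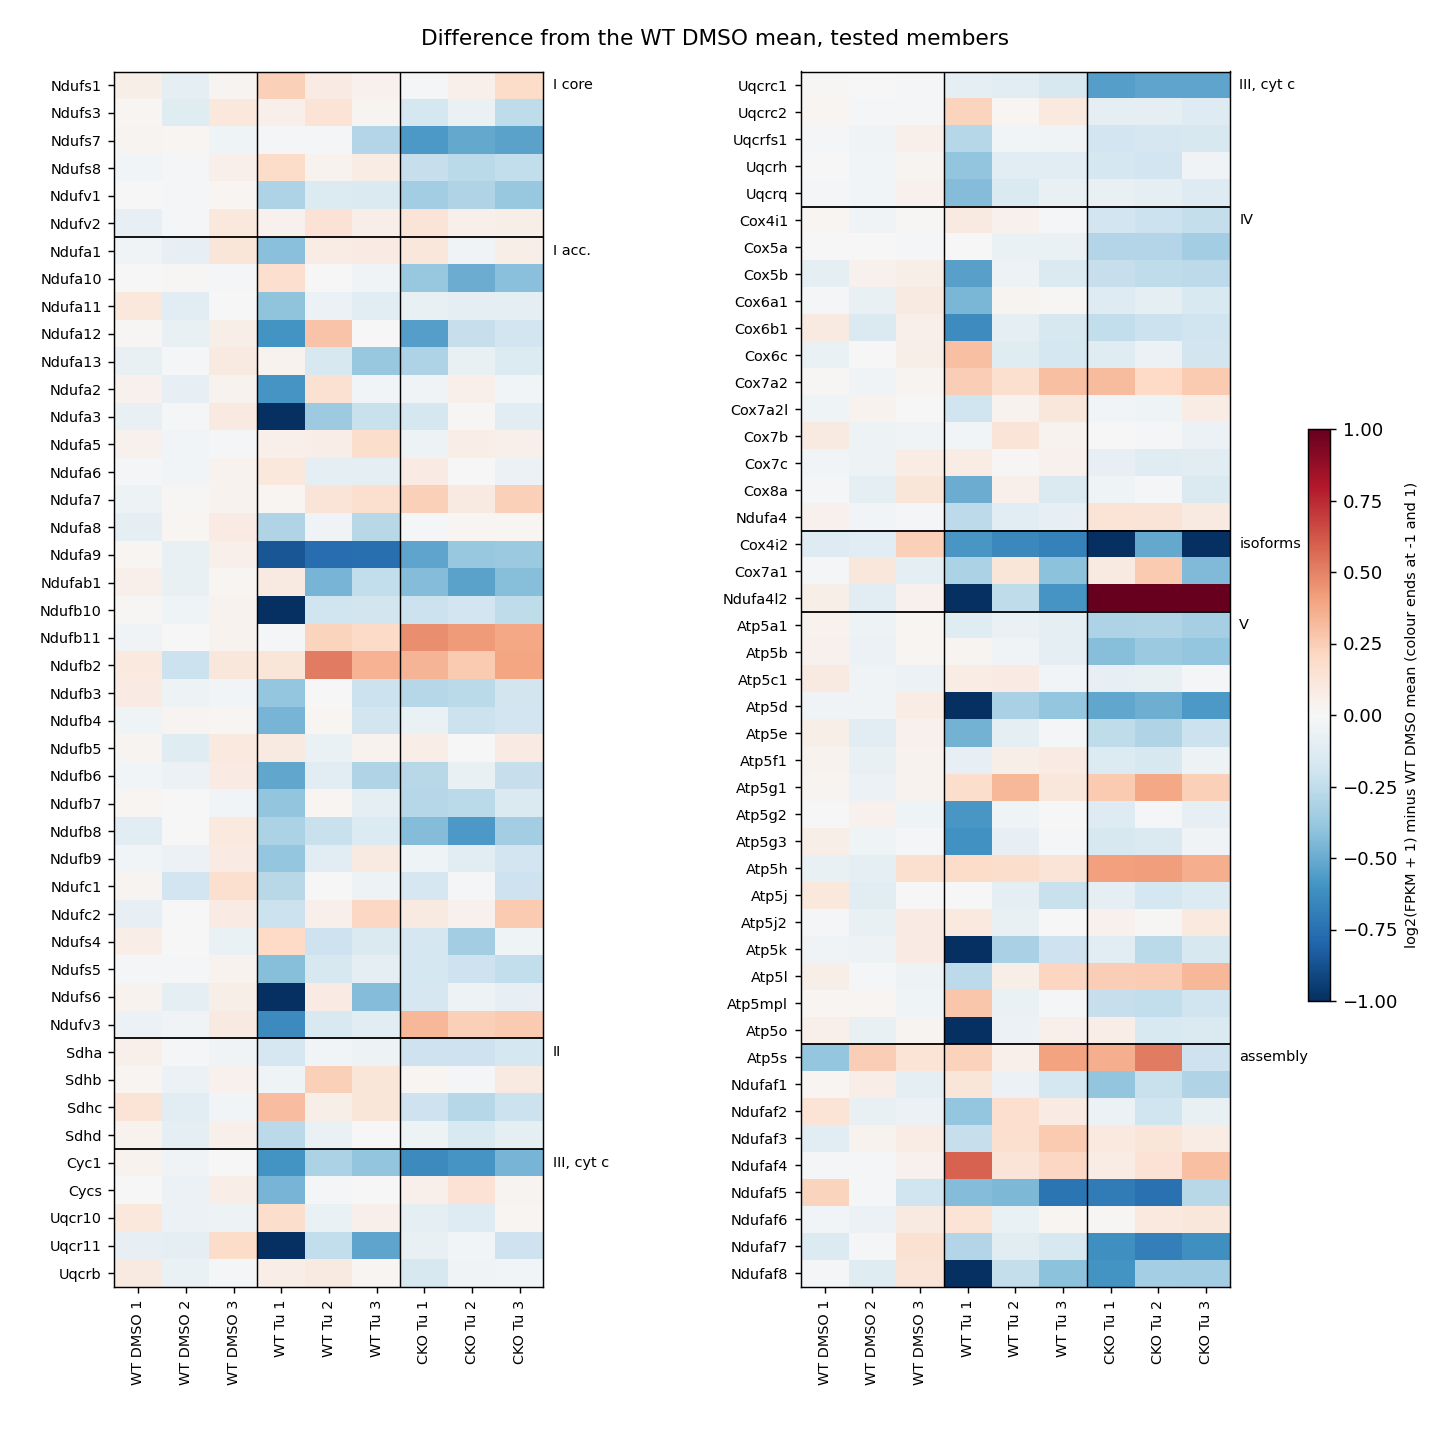
Difference of each library from the WT DMSO mean on the log2(FPKM + 1) scale (colour, ending at -1 and 1) for tested genes (rows, by complex) in the 9 libraries (columns). Ndufa9 is blue in all 6 tunicamycin libraries, Uqcrc1 is darkest in the 3 CKO Tu libraries, Ndufa4l2 is deep red in CKO Tu alone, and WT Tu replicate 1 holds most of the dark blue cells of ATP synthase.

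On the log2(FPKM + 1) scale the largest called fall with tunicamycin was in Ndufa9, an accessory subunit of complex I that binds a nucleotide cofactor near the quinone site (chromosome 6, 126821721 to 126849136, minus strand, mm10). Its level was 24.7, 23.0 and 25.3 FPKM in WT DMSO, 13.0, 13.9 and 14.0 in WT Tu, with 16.6, 18.5 and 18.5 in CKO Tu. The 3 groups did not overlap, and CKO Tu lay between the others. The mean fell by 43.9% with tunicamycin (log2 change -0.79 ± 0.06 SE, limma adjusted p = 3.4e-05), and was 30.9% higher in CKO Tu than in WT Tu (0.36 ± 0.06, adjusted p = 0.0024). CKO Tu still lay below WT DMSO by 0.43 on the log2 scale (limma adjusted p = 0.0006). All 3 calls held under each of 18 alternatives, with the first change between -0.92 and -0.76 and the second between 0.33 and 0.42.

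Among the core subunits of complex I, Ndufv1 was lower with tunicamycin. Of the 7, 3 were lower in CKO Tu than in WT Tu, beside 19.6% of all genes tested. Ndufv1, the flavin-binding subunit, read 40.4, 39.8 and 41.0 FPKM in WT DMSO, 32.4, 36.6 and 36.5 in WT Tu, with 31.5, 32.6 and 30.8 in CKO Tu. Its fall with tunicamycin was small (-0.20 ± 0.06, limma adjusted p = 0.028), and after removal of the GC trend it was -0.05, with an adjusted p of 0.345. Ndufv1 was also lower in CKO Tu than in WT Tu once WT Tu replicate 1 was left out (-0.20 ± 0.04, limma adjusted p = 0.0052).

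Ndufs7 and Ndufs8 each carry iron-sulfur clusters on the path to the quinone. For Ndufs7 the levels were 39.6, 39.5 and 37.6 FPKM in WT DMSO, 38.4, 38.6 and 31.5 in WT Tu, against 25.9, 27.0 and 26.5 in CKO Tu. For Ndufs8 they were 44.4, 44.6 and 47.0 in WT DMSO, 51.5, 46.4 and 47.8 in WT Tu, with 38.4, 37.5 and 38.0 in CKO Tu. Both were thus lower in every CKO Tu library than in any WT library, with log2 changes of -0.43 ± 0.08 (limma adjusted p = 0.0027) and -0.35 ± 0.05 (adjusted p = 0.0012) against WT Tu. Ndufs3, another core subunit of the same arm, was lower than in WT Tu (log2 change -0.24 ± 0.07, limma adjusted p = 0.035), at 21.8, 23.6 and 20.6 FPKM in CKO Tu against 25.7, 27.3 and 25.2 in WT Tu and 25.0, 22.7 and 26.7 in WT DMSO. This call was lost in 7 of 18 alternatives, and 39.7% of the 50-base words of its longest transcript occur in other genes, mostly the pseudogene Gm12251, so its counts are uncertain. Ndufs1, the largest core subunit, read 7.97, 7.08 and 7.76 FPKM in WT DMSO, 9.13, 8.08 and 7.87 in WT Tu, against 7.55, 7.89 and 8.74 in CKO Tu. Its groups overlapped, and it was called in neither comparison (limma adjusted p = 0.269 and 0.673).

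Of the 29 accessory subunits of complex I, 2 fell with tunicamycin and 0 rose by limma, with 1 at a positive change and an unadjusted p under 0.05 and 1 higher by voom; against WT Tu, 3 were higher and 1 lower in CKO Tu. Without WT Tu replicate 1 the counts were 2 higher and 4 lower with tunicamycin, and 3 higher and 4 lower in CKO Tu. Among all genes tested, 17.7% were higher and 15.9% lower with tunicamycin, and 18.7% and 19.6% in CKO Tu against WT Tu. Leaving out that library made these shares 17.6% and 14.9%, and 20% and 21.2%. Ndufa10, a subunit related to nucleoside kinases (chromosome 1, 92439010 to 92473860), was the lower one, at 29.6, 29.7 and 29.1 FPKM in WT DMSO, 33.2, 29.4 and 28.7 in WT Tu, with 22.4, 20.6 and 21.9 in CKO Tu. The CKO Tu libraries lay below all 6 WT libraries, and from WT Tu to CKO Tu mean FPKM dropped by 28.9% (-0.47 ± 0.06, limma adjusted p = 0.0006). Ndufv3, which sits beside the flavin subunit, read 8.49, 8.62 and 9.52 FPKM in WT DMSO, 5.36, 7.88 and 8.11 in WT Tu, against 11.4, 10.7 and 10.9 in CKO Tu. Here CKO Tu was above every WT library, by 0.58 ± 0.13 against WT Tu (limma adjusted p = 0.0071) and by 0.41 ± 0.06 without WT Tu replicate 1.

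Ndufb11, a membrane-arm subunit encoded on the X chromosome, read 42.7, 44.0 and 44.9 FPKM in WT DMSO, 43.5, 51.4 and 50.4 in WT Tu, with 60.8, 59.3 and 57.7 in CKO Tu. It was highest in CKO Tu without overlap (0.29 ± 0.07 against WT Tu, limma adjusted p = 0.0092), and that difference cannot be told apart from sex. Other genes share 17.5% of its 50-base words. The other X-linked genes, Ndufa1 and Cox7b, had overlapping groups, with changes of 0.13 ± 0.13 and -0.07 ± 0.06. Ndufb6, a small membrane-arm subunit, fell with tunicamycin from 44.8, 43.6 and 48.5 FPKM to 31.6, 42.0 and 36.9, and read 37.5, 43.4 and 38.6 in CKO Tu. The fall of -0.31 ± 0.10 had a limma adjusted p of 0.045, and of 0.09 without WT Tu replicate 1; 34.1% of its 50-base words are shared, with Smim27. Ndufb8, an accessory subunit often used as a marker of assembled complex I, was not called in either step (-0.22 ± 0.08 and -0.23 ± 0.08), passed against WT Tu without WT Tu replicate 1 (-0.27 ± 0.09, limma adjusted p = 0.037), and was lower in CKO Tu than in WT DMSO (-0.45 ± 0.08, limma adjusted p = 0.0018).

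**Figure D3:**
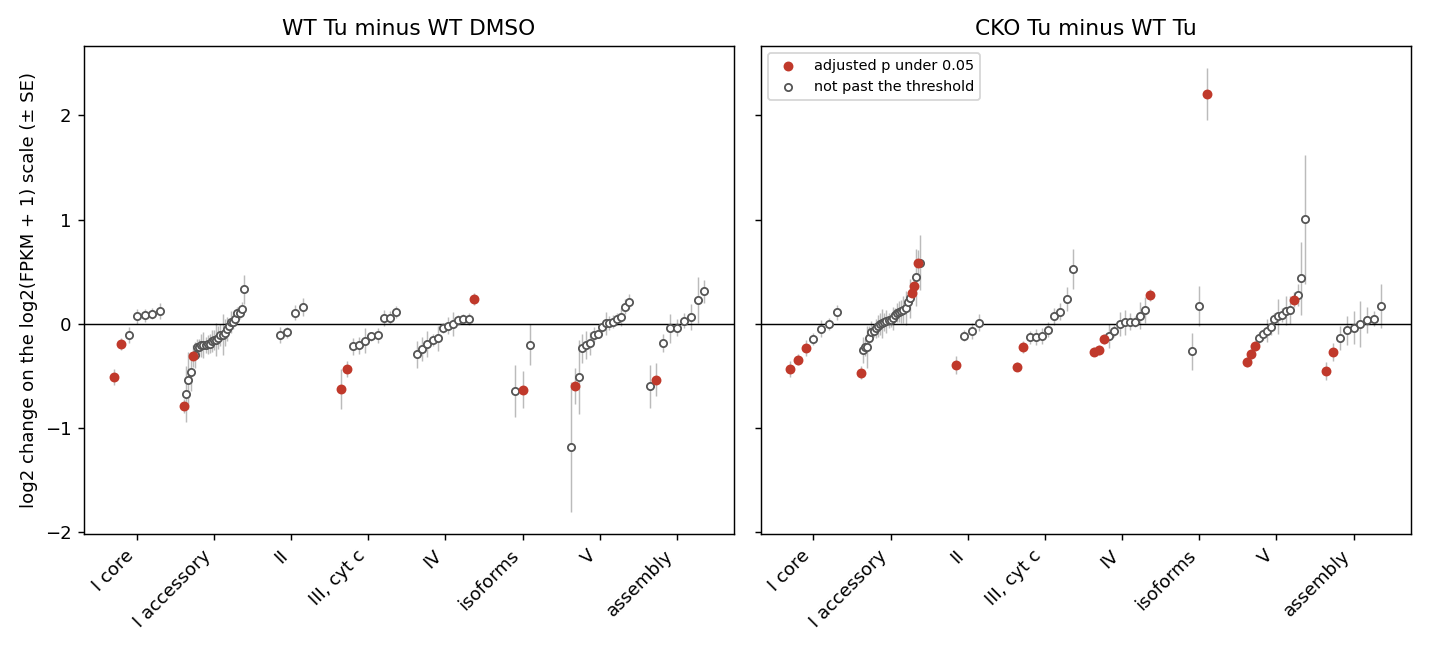
Log2 change on the log2(FPKM + 1) scale with its standard error (vertical axis) for each tested gene, by complex (horizontal axis), for WT Tu minus WT DMSO (left) and CKO Tu minus WT Tu (right); filled points had a limma adjusted p under 0.05. Ndufa9, at -0.79, is the lowest filled point on the left, and Ndufa4l2, at 2.202, the highest on the right.

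For complex II, which also works in the citric acid cycle, 0 of its 4 subunits were called with tunicamycin by limma, 0 had an unadjusted p under 0.05, and voom on the recovered fragments called 0. Other settings made calls in both directions. Sdha was lower after quantile normalization (-0.16 ± 0.05, limma adjusted p = 0.039) and after scaling to total fragments (-0.21 ± 0.06, adjusted p = 0.024), and Sdhd was lower after quantile normalization (-0.20 ± 0.06, adjusted p = 0.038). Sdhb was higher without WT Tu replicate 1 (0.18 ± 0.05, limma adjusted p = 0.039) and after removal of the GC trend (0.18 ± 0.06, adjusted p = 0.045). Sdhc, a membrane anchor, read 36.02, 30.1 and 31.99 FPKM in WT DMSO, 40.6, 33.95 and 35.5 in WT Tu, against 28.1, 26.6 and 27.9 in CKO Tu. It was lower in CKO Tu than in WT Tu with no overlap (-0.40 ± 0.08, limma adjusted p = 0.0059), and the call held under all 18 alternatives. Sdha, the flavoprotein that oxidises succinate, read 58.6, 56.4 and 55.2 FPKM in WT DMSO, 50.5, 55.5 and 54.8 in WT Tu, with 48.9, 49.1 and 50.1 in CKO Tu. Its difference between CKO Tu and WT Tu, -0.12 ± 0.05, did not pass (limma adjusted p = 0.115), and it passed without WT Tu replicate 1 (-0.16 ± 0.04, adjusted p = 0.016).

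In complex III, Uqcrc1 was called lower in CKO Tu than in WT Tu, and Cyc1 was called lower with tunicamycin. Uqcrc1, a core protein on the matrix side (chromosome 9, 108936633 to 108949623), read 59.6, 59.3 and 58.9 FPKM in WT DMSO, 55.2, 54.9 and 53.0 in WT Tu, against 40.1, 40.8 and 40.7 in CKO Tu. Replicates differed by a few percent, and the difference of -0.41 ± 0.04 between CKO Tu and WT Tu (limma adjusted p = 0.00015) was larger than their spread. With tunicamycin alone the change was -0.12 ± 0.04 (adjusted p = 0.053), which passed in 6 of 18 alternatives, among them the fit without WT Tu replicate 1 (-0.13 ± 0.04, limma adjusted p = 0.024). Cyc1, the cytochrome c1 haem protein (chromosome 15, 76343523 to 76346260), fell with tunicamycin from 103, 98.0 and 100.3 FPKM to 66.0, 80.5 and 75.9 (-0.44 ± 0.08, limma adjusted p = 0.0031) and read 64.0, 66.2 and 72.5 in CKO Tu. Over the 18 alternatives this fall of Cyc1 lay between -0.57 and -0.18, with a limma adjusted p of at most 0.035. The 2 tunicamycin groups overlapped for Cyc1, with a difference of -0.13 ± 0.08 (adjusted p = 0.231). The overlap comes from WT Tu replicate 1. Without it the difference was -0.21 ± 0.06 and passed (limma adjusted p = 0.023). Complex III with cytochrome c then had 4 of 10 genes lower in CKO Tu than in WT Tu in place of 2. Among all genes tested, 21.2% and 19.6% were lower in these fits.

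Uqcrc2, the other core protein, read 55.9, 54.7 and 54.7 FPKM in WT DMSO, 64.5, 55.8 and 59.0 in WT Tu, with 51.3, 51.3 and 50.2 in CKO Tu, and was lower in CKO Tu than in WT Tu (-0.22 ± 0.06, limma adjusted p = 0.014). Of its 50-base words, 24.8% are shared with Pdzd9. Uqcr11, the smallest subunit, fell with tunicamycin from 69.4, 68.8 and 83.8 FPKM to 33.7, 61.9 and 50.7, and read 69.9, 72.2 and 63.9 in CKO Tu. The lowest value belongs to WT Tu replicate 1; the change was -0.63 ± 0.19 with it (limma adjusted p = 0.032) and -0.39 ± 0.11 without it (adjusted p = 0.03), and the call was lost in 7 of 18 alternatives. Cycs, the mobile carrier cytochrome c, read 39.0, 37.7 and 41.0 FPKM in WT DMSO, 28.03, 38.7 and 39.2 in WT Tu, against 40.7, 43.4 and 40.03 in CKO Tu. Outside the low WT Tu replicate 1 its values lay between 37.7 and 43.4, and it was called in neither comparison (limma adjusted p = 0.317 and 0.138). Other genes share 28.5% of the 50-base words of Cycs.

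**Figure D4:**
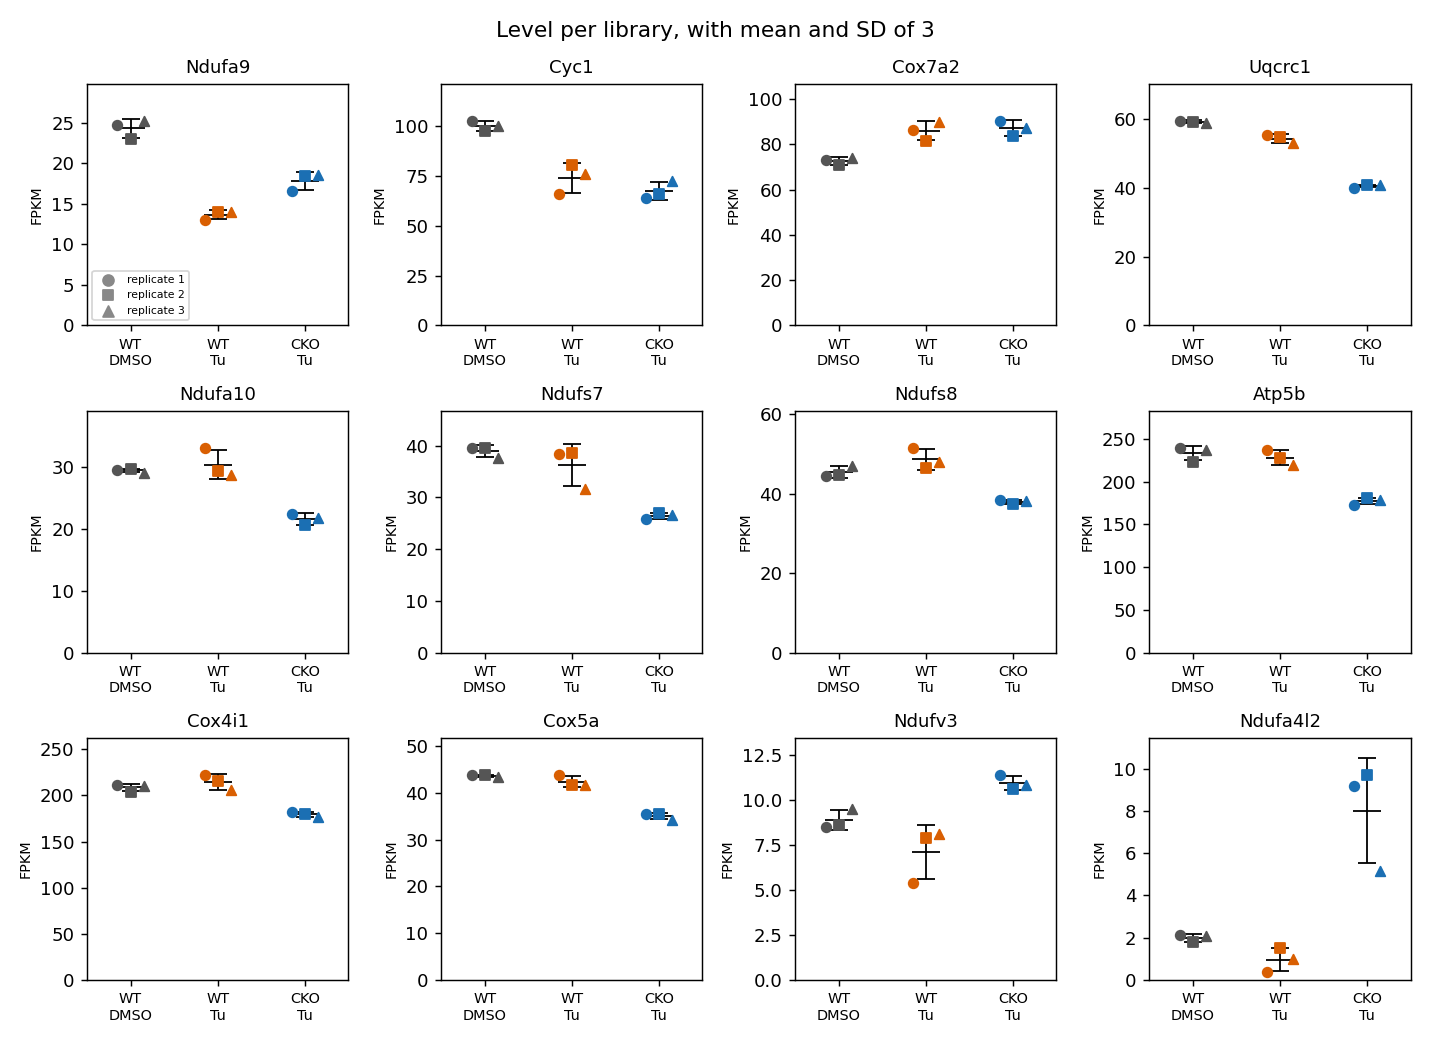
FPKM per library (points, shape by replicate) with the mean and SD of 3 libraries (black) for 12 genes in WT DMSO, WT Tu and CKO Tu. By the means, Ndufa9 is lowest in WT Tu, and Cyc1, Uqcrc1, Ndufa10, Ndufs7, Ndufs8, Atp5b, Cox4i1 and Cox5a are lowest in CKO Tu.

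In complex IV, tunicamycin raised Cox7a2, the liver form of a small subunit (chromosome 9, 79755361 to 79759878), from 73.2, 70.8 and 74.0 FPKM to 86.4, 81.4 and 89.8, with 90.5, 83.6 and 87.2 in CKO Tu. All 6 tunicamycin libraries lay above all 3 WT DMSO libraries (0.24 ± 0.05, limma adjusted p = 0.0099). The adjusted p was 0.072 with quantile normalization and 0.153 with scaling to total fragments. Between CKO Tu and WT Tu 3 of 12 subunits were lower, beside 19.6% of all genes tested. Cox4i1, the usual form of the regulatory subunit that binds ATP, read 212, 204 and 211 FPKM in WT DMSO, 222, 215 and 206 in WT Tu, with 182, 179 and 177 in CKO Tu (-0.25 ± 0.05, limma adjusted p = 0.0034), with 14.7% of its 50-base words shared with Emc8.

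Cox5a read 43.9, 43.9 and 43.5 FPKM in WT DMSO, 43.9, 41.8 and 41.7 in WT Tu, against 35.4, 35.6 and 34.3 in CKO Tu (-0.27 ± 0.04, limma adjusted p = 0.0018). For both, CKO Tu lay below all WT libraries. Cox7c read 136, 134 and 146 FPKM in WT DMSO, 147, 140 and 143 in WT Tu, with 131, 128 and 129 in CKO Tu; its difference of -0.15 ± 0.05 (limma adjusted p = 0.044) was lost in 15 of 18 alternatives, and pseudogenes share 27.9% of its words. Ndufa4, named for complex I and found as a subunit of complex IV, was higher in CKO Tu than in WT Tu, with 87.6, 83.4 and 84.6 FPKM in WT DMSO, 70.8, 78.6 and 80.2 in WT Tu, against 93.5, 93.1 and 90.9 in CKO Tu (0.27 ± 0.06, limma adjusted p = 0.0057). WT Tu was its lowest group and CKO Tu its highest, without overlap.

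The isoform sets were dominated by the forms usual in liver. Cox6a1 and Cox8a averaged 291 and 245 FPKM in WT DMSO, while their muscle forms Cox6a2 and Cox8b failed the filter on low values, with 54 and 5 fragments over all 9 libraries. Cox6b2, Cox7b2, Cox8c and a second Atp5o entry also failed it, the last 3 listed at 0 in every library. Cox7a1, the heart and muscle form, read 1.84 to 3.62 FPKM with overlapping groups. Cox4i2, a form known for response to low oxygen and expressed in lung and perivascular cells, read 1.59, 1.62 and 2.33 FPKM in WT DMSO, 0.892, 0.806 and 0.774 in WT Tu, with 0.405, 0.982 and 0.25 in CKO Tu. Coverage was low, down to 3 fragments in the CKO Tu library at 0.25 FPKM. Cox4i2 fell with tunicamycin (-0.63 ± 0.18, limma adjusted p = 0.025), and the call was lost in 6 of the 14 alternatives in which it was tested. The 8 endothelial markers moved with it: their sum was 10.2 to 11.2 FPKM in WT DMSO, 3.85 to 5.25 in WT Tu and 2.96 to 3.34 in CKO Tu. None of the 8 was at 0 throughout, and 4 of 4 tested fell with tunicamycin, beside 15.9% of all genes tested. Their part in the change of Cox4i2 was not tested.

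Ndufa4l2, a relative of Ndufa4 that is a known target of the hypoxia-inducible factor HIF-1 (chromosome 10, 127514967 to 127517154), had the largest difference of all 90 genes. Its levels were 2.12, 1.77 and 2.08 FPKM in WT DMSO, 0.385, 1.51 and 0.99 in WT Tu, against 9.21, 9.72 and 5.15 in CKO Tu. Every CKO Tu library was above every WT library, and the change against WT Tu was 2.202 ± 0.25 (limma adjusted p = 0.00026), or 1.97 ± 0.23 without WT Tu replicate 1. The difference between WT Tu and WT DMSO was -0.65 ± 0.25 and did not pass (adjusted p = 0.078). Even at its highest it stood far below Ndufa4 in FPKM.

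In ATP synthase, 1 of 16 tested genes fell with tunicamycin, and 3 were lower and 1 higher in CKO Tu than in WT Tu. When WT Tu replicate 1 was left out, 2 fell with tunicamycin, and 6 were lower and 1 higher in CKO Tu. Among all genes tested, 15.9% were lower with tunicamycin, and 19.6% were lower and 18.7% higher in CKO Tu. Leaving out that library made these shares 14.9%, 21.2% and 20%. Atp5d, the delta subunit of the central stalk, fell from 110.4, 111 and 119 FPKM in WT DMSO to 53.2, 90.2 and 86.4 in WT Tu, and read 78.8, 80.6 and 75.7 in CKO Tu. WT Tu replicate 1 was the lowest, and the change was -0.60 ± 0.17 with it (limma adjusted p = 0.025) and -0.36 ± 0.05 without it (adjusted p = 0.0012). Without it Atp5d was also lower in CKO Tu than in WT Tu (-0.17 ± 0.05, limma adjusted p = 0.028). Atp5k, with the deviation described above, changed by -1.18 ± 0.62 with that library (adjusted p = 0.178) and by -0.27 ± 0.07 without it (adjusted p = 0.018).

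Both subunits of the catalytic head were lower in CKO Tu. Atp5b, the beta subunit that makes ATP (chromosome 10, 128083273 to 128090391), read 239.8, 224 and 237 FPKM in WT DMSO, 237, 228 and 219.7 in WT Tu, with 173, 180.4 and 178 in CKO Tu. The difference of -0.36 ± 0.05 against WT Tu (limma adjusted p = 0.0008) came with no overlap, while WT Tu and WT DMSO overlapped. Atp5a1, the alpha subunit, read 230.0, 216 and 227 FPKM in WT DMSO, 206, 214 and 209 in WT Tu, against 181, 182 and 178 in CKO Tu (-0.22 ± 0.05 against WT Tu, limma adjusted p = 0.006). Atp5mpl, a small membrane subunit, was lower (log2 change -0.29 ± 0.08, limma adjusted p = 0.025), with 53.5, 53.5 and 51.3 FPKM in WT DMSO, 64.0, 50.4 and 52.0 in WT Tu, with 44.8, 44.3 and 45.9 in CKO Tu; the call was lost in 6 of 18 alternatives.

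Atp5h, a subunit of the peripheral stalk, was the higher one (0.23 ± 0.07, limma adjusted p = 0.028), with 34.04, 33.6 and 40.1 FPKM in WT DMSO, 40.9, 40.5 and 39.3 in WT Tu, against 47.9, 48.2 and 46.2 in CKO Tu. That call was lost in 7 of 18 alternatives, and pseudogenes share 23.8% of its words. The proton-carrying c-ring comes from 3 genes that encode the same mature protein. Atp5g3 averaged 110 ± 4.25 FPKM (SD, n = 3) in WT DMSO, Atp5g2 59.9 ± 1.85 and Atp5g1 13.9 ± 0.55, in that order and without overlap. Neither comparison called any of the 3; Atp5g1 was higher in CKO Tu than in WT DMSO (0.29 ± 0.07, limma adjusted p = 0.0082).

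Of the 8 Ndufaf assembly factors and Atp5s, 1 fell with tunicamycin and 2 were lower in CKO Tu than in WT Tu. Among all genes tested, 15.9% and 19.6% were lower in these comparisons. Ndufaf7, a methyltransferase that acts early in assembly, read 4.78, 5.25 and 6.06 FPKM in WT DMSO, 4.17, 4.88 and 4.68 in WT Tu, with 3.13, 2.95 and 3.15 in CKO Tu. CKO Tu lay below all 6 WT libraries (-0.45 ± 0.09 against WT Tu, limma adjusted p = 0.0038). Ndufaf5, which modifies Ndufs7, fell with tunicamycin from 5.89, 4.85 and 4.14 FPKM to 3.38, 3.34 and 2.58, and read 2.64, 2.52 and 3.89 in CKO Tu (-0.54 ± 0.16, limma adjusted p = 0.027). Ndufaf1 read 15.6, 16.1 and 14.4 FPKM in WT DMSO, 16.7, 14.6 and 13.5 in WT Tu, against 11.4, 12.9 and 12.2 in CKO Tu, with a difference of -0.27 ± 0.08 against WT Tu (limma adjusted p = 0.034) that was lost in 9 of 18 alternatives.

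Under all alternatives in which they were tested, 3 of the 10 calls with tunicamycin held (Ndufa9 and Cyc1 among them), as did 16 of the 21 between CKO Tu and WT Tu. The 16 were Ndufs7, Ndufs8, Ndufa10, Sdhc, Uqcrc1, Uqcrc2, Cox4i1, Cox5a, Atp5a1, Atp5b and Ndufaf7 among lower genes, and Ndufa9, Ndufb11, Ndufv3, Ndufa4 and Ndufa4l2 among higher ones. The lower ones that held included 2 core subunits of complex I, both core proteins of complex III and the alpha and beta subunits of ATP synthase. How many calls of all genes held in the same way was not counted. Before this selection 15 of the 90 were lower in CKO Tu than in WT Tu, beside 19.6% of all genes tested.

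**Figure D5:**
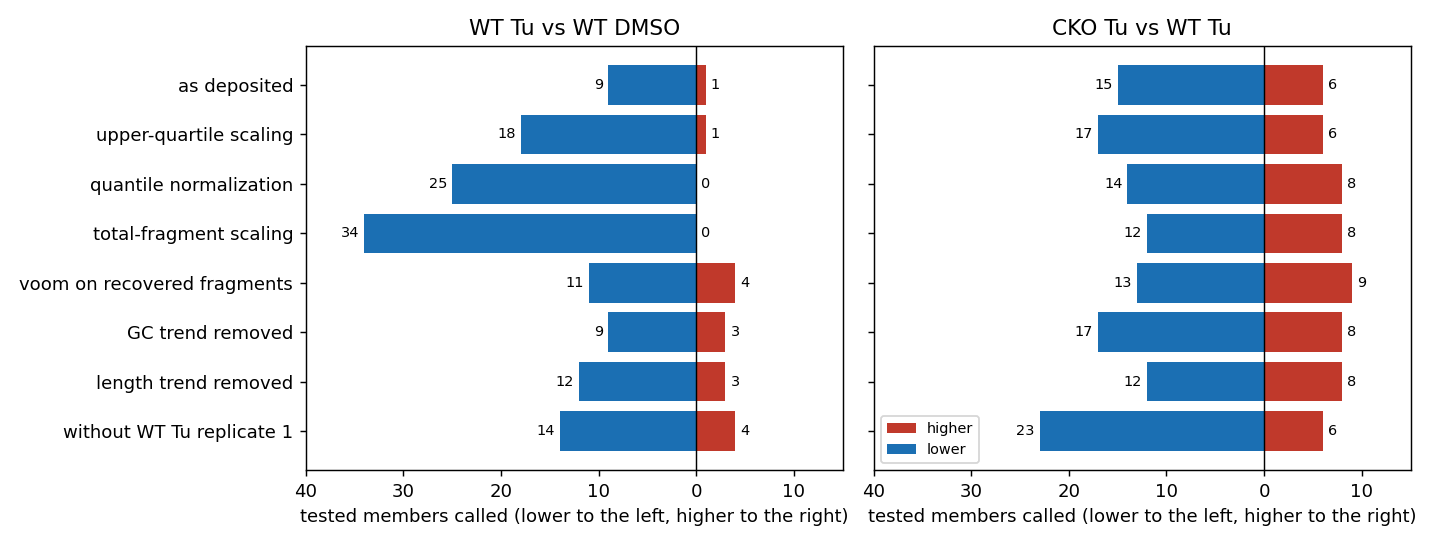
Number of tested genes called lower (blue, to the left) and higher (red, to the right) at a limma adjusted p under 0.05 for 8 ways of processing, in WT Tu against WT DMSO (left panel) and CKO Tu against WT Tu (right panel). The count of lower genes runs from 9 to 34 on the left and from 12 to 23 on the right.

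Against WT DMSO, which differs from CKO Tu in both genotype and treatment, 6 genes were higher and 21 lower in CKO Tu. Together these were 30% of the 90, beside 49.5% of all genes called (25.3% higher and 24.2% lower), and the median was -0.11 against 0.0008. Groups did not overlap for 11 genes above and 41 below, beside 31.8% and 31.3% of all genes. The lower count was 34 after upper-quartile scaling (29% of all genes), 32 after scaling to total fragments (28.9%) and 36 in a fit of only these 2 groups (27.9%). Sorted by complex, 4 of 7 core and 4 of 29 accessory subunits of complex I were lower, 2 of 4 in complex II, 2 of 10 in complex III with cytochrome c, 2 of 12 in complex IV, and 3 of 16 in ATP synthase. Uqcrc1 had the smallest adjusted p (-0.54 ± 0.04, limma adjusted p = 1.3e-05), and the mean FPKM of Cyc1 dropped by 32.7% (-0.57 ± 0.08, adjusted p = 0.00038). The higher genes were Ndufa7, Ndufb11, Cox7a2, Ndufa4l2, Atp5g1 and Atp5h. This comparison shares its libraries with the other 2.

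The promoters of these genes were read from RefSeq (GRCm38.p6), as 250 bases before to 50 after each start; 77 of the 95 symbols had a window. The palindromic NRF1 motif, whose matches are the longer runs of capitals in the sequences printed here, with any base allowed at its sixth place, was searched on both strands like the other motifs. It occurred in 24.7% of the 77 genes, against 12.5% of the 8227 tested genes with a window. By window, these were 20 of 82 (24.4%), 10.7% of windows of tested genes and 4.6% of all 32851 windows. The ETS motif CCGGAAG of GABPA was in 23.4% of the genes against 21.9%, and the YY1 motif AAGATGG in 15.6% against 9.12%. The ERR motif TCAAGGTCA was found in Atp5g3 and Sdhd. Of the motifs of the unfolded protein response, UPRE (TGACGTGG) occurred once, in Atp5s, while the endoplasmic reticulum stress elements ERSE and ERSE-II and the CHOP and ATF4 motif TGATGCAA were not found in these windows. Matches of different motifs were allowed to overlap, and the median GC content was 58.5% in these windows and 60.7% in those of all tested genes. Of the 19 tested genes with an NRF1 match, 1 was called with tunicamycin (Ndufaf5) and 2 between CKO Tu and WT Tu (Uqcrc1 and Atp5h). Among 55 with a window and no match the counts were 6 and 13. Of all genes tested, 33.6% and 38.3% were called in these comparisons, and whether a match bears on a call was not tested. A match is only a match of letters.

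The 200 bases before the start are shown for 3 genes with several NRF1 matches, and for Ndufa9, the gene with the largest called fall on the log2(FPKM + 1) scale, which has none there. Capitals mark NRF1 matches and, in the last stretch of Cox6a1, an ETS match on the other strand (CTTCCGG). Each is read 5′ to 3′ on the strand of the gene, in GRCm38.p6.
Sdha, chr13:74350241-74350440, minus strand: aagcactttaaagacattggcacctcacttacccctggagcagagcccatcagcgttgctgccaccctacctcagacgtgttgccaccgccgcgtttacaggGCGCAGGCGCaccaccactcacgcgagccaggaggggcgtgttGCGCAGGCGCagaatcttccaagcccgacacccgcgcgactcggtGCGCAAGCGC
Ndufb4, chr16:37654369-37654568, minus strand: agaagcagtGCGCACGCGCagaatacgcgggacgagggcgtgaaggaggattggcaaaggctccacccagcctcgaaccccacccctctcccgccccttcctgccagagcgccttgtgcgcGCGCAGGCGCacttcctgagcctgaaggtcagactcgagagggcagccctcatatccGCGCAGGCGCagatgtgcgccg
Cox6a1, chr5:115348959-115349158, minus strand: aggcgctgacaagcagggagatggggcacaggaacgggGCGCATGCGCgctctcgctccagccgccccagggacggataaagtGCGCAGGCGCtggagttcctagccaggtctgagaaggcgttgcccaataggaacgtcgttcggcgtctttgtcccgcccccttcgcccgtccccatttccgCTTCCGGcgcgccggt
Ndufa9, chr6:126849145-126849344, minus strand: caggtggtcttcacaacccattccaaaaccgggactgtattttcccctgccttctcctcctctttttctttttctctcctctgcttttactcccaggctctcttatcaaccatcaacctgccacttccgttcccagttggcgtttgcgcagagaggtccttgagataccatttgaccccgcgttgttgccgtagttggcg
Sdha and Ndufb4 hold 3 NRF1 matches each and Cox6a1 holds 2. None of the 3 was called in either of the first comparisons: Ndufb4 changed by -0.21 ± 0.11 and 0.05 ± 0.11, and Cox6a1 by -0.14 ± 0.12 and 0.01 ± 0.12.

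Genes around the respiratory chain were counted from lists outside the name rule. Of 12 tested regulators of respiratory genes, 3 rose with tunicamycin (Gabpa, Tfb2m and Yy1) and 1 fell (Polrmt). In CKO Tu against WT Tu, 3 were higher and 2 lower. These calls were 33.3% and 41.7% of the 12, beside 33.6% and 38.3% of all genes tested. With tunicamycin the counts were 1 higher and 1 lower after quantile normalization, and 1 higher and 2 lower after scaling to total fragments. Ppargc1a and Ppargc1b were below the filter and not tested. In WT DMSO, WT Tu and CKO Tu, Ppargc1a averaged 0.377, 1.02 and 0.929 FPKM and Ppargc1b 0.75, 0.515 and 0.991. Esrra, a nuclear receptor that acts on respiratory genes, read 14.2, 12.9 and 12.2 FPKM in WT DMSO, 7.06, 10.9 and 13.0 in WT Tu, with 15.1, 17.2 and 17.2 in CKO Tu (0.67 ± 0.17 against WT Tu, limma adjusted p = 0.016). Nrf1 was higher by 0.36 ± 0.07 (adjusted p = 0.0044), and Lrpprc, which stabilises mitochondrial mRNA, lower (-0.49 ± 0.11, adjusted p = 0.0086). With WT Tu replicate 1 left out, Esrra was higher by 0.44 ± 0.10 (limma adjusted p = 0.008), and the counts were 1 higher and 1 lower with tunicamycin, and 4 and 2 in CKO Tu.

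Of 39 tested assembly factors outside the rule, 3 rose and 2 fell with tunicamycin, and 3 were higher and 8 lower in CKO Tu than in WT Tu. That was 12.8% and 28.2% of the 39, beside 33.6% and 38.3% of all genes tested. After scaling to total fragments, 3 rose and 8 fell with tunicamycin, and 4 were higher and 6 lower in CKO Tu. In the latter comparison the largest were Cox19, a copper-handling factor of complex IV (0.58 ± 0.09, limma adjusted p = 0.0013), Cox15, which makes its haem a (-0.49 ± 0.07, adjusted p = 0.0012), and Cmc2 (-0.45 ± 0.14, adjusted p = 0.037). Enzymes of the citric acid cycle, which feed the chain with NADH, had 7 of 14 members higher and 1 lower with tunicamycin, and 8 lower in CKO Tu against WT Tu, with 0 higher there by limma, by voom or at an unadjusted p under 0.05. Each comparison called 57.1% of the 14, beside the same 33.6% and 38.3% of all genes. Leaving out WT Tu replicate 1 gave 8 and 0 with tunicamycin (1 lower at an unadjusted p under 0.05 by limma), and 2 higher and 8 lower in CKO Tu. After scaling to total fragments the counts were 2 higher and 1 lower with tunicamycin, and 1 higher and 6 lower in CKO Tu. The summed level of these 14 was 433.8 to 437 FPKM in WT DMSO, 488 to 499.8 in WT Tu and 430.1 to 444 in CKO Tu. Idh2, the mitochondrial NADP-dependent isocitrate dehydrogenase, moved by 0.49 ± 0.08 (limma adjusted p = 0.0015) and then by -0.38 ± 0.08 (adjusted p = 0.0047).

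The 13 subunits encoded in mitochondrial DNA had 2 members higher with tunicamycin by limma (mt-Nd4 and mt-Nd5), 6 at an unadjusted p under 0.05 and 6 by voom; after scaling to total fragments 0 were called and 1 had an unadjusted p under 0.05. In CKO Tu 7 were lower than in WT Tu. The limma calls were 15.4% and 53.85% of the 13 in these comparisons, beside 33.6% and 38.3% of all genes tested. When WT Tu replicate 1 was left out, 1 was higher with tunicamycin (mt-Nd5) and 5 were lower in CKO Tu. With all libraries, in the other direction each comparison had 0 by limma, by voom and at an unadjusted p under 0.05. Mitochondrial fragments made up 4.39% to 5.69% of each WT DMSO library, 5.25% to 6.87% of WT Tu and 4.46% to 4.65% of CKO Tu, with WT Tu replicate 1 the highest of all 9. The part of that share in the changes of the mitochondrial genes was not tested. Their mean levels in WT DMSO were uneven, from 1.43 FPKM for mt-Atp8 to 13890 for mt-Co1. Other low ones were mt-Nd3, mt-Co3, mt-Nd4l, mt-Atp6 and mt-Co2, at 3.865, 37.85, 38.67, 42.87 and 82.14 FPKM. Of these, mt-Co2 was among the 7 lower in CKO Tu than in WT Tu.

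Markers of hepatocytes also moved with the groups. All 10 were detected, with a summed level of 19670 to 21890 FPKM in WT DMSO, 19170 to 20250 in WT Tu and 17130 to 18310 in CKO Tu, most of it albumin. With tunicamycin 4 of 10 fell and 0 rose by limma, by voom or at an unadjusted p under 0.05. By limma 40% of the 10 were called with tunicamycin and 90% between CKO Tu and WT Tu, beside 33.6% and 38.3% of all genes tested. In CKO Tu against WT Tu 8 were higher (Tat by 2.42, Apoa1 by 1.77 and Hnf4a by 1.48 on the log2 scale) and Alb was lower (-0.47 ± 0.07, limma adjusted p = 0.0011); after quantile normalization 8 were higher and 0 lower, also at an unadjusted p under 0.05. Markers of cholangiocytes summed to 22.7 to 25.9 FPKM in WT DMSO, 22.8 to 24.3 in WT Tu and 34.3 to 38.3 in CKO Tu. Most of that was Spp1, at group means of 15.3, 16.7 and 27.2 FPKM, and Sox9, at 7.74, 5.57 and 8.25. Below the filter, Epcam averaged 0.64, 0.72 and 0.36 FPKM and Krt19 0.67, 0.47 and 0.49, with Krt7 and Cftr near 0. Markers of Kupffer cells summed to 74.9 to 92.2, 96.8 to 114 and 92.5 to 107 FPKM. Nearly all of it was Cd68, which rose with tunicamycin (0.37 ± 0.10, limma adjusted p = 0.02). Lyz2, the other Kupffer marker tested, fell from a mean of 1.48 to 0.149 FPKM (-1.11 ± 0.15, adjusted p = 0.00073), and Csf1r, below the filter, averaged 0.297 and 0.112 FPKM, with Vsig4 at 0 in every library and Adgre1, Clec4f and Marco at or near 0. Markers of stellate cells (at most 2.24), of lymphocytes and neutrophils (at most 6.45) and of red cells (at most 6.6) summed to little in every library. The 1 tested gene of each of these 3 lists moved with the groups: Reln was higher in CKO Tu than in WT Tu by 1.37 ± 0.12, Alas2 was higher there by 2.09 ± 0.11 (limma adjusted p = 5.4e-05 and 4.1e-06), and Camp rose with tunicamycin by 1.83 ± 0.14 (adjusted p = 2.9e-05). The rest of these lists were below the filter, and apart from Hba-a1 and Cd3e none had a higher mean in the same comparison. Dcn averaged 0.168 FPKM in WT Tu and 0.081 in CKO Tu, and Hbb-bs 0.411 and 0.392. S100a8 averaged 0.148 FPKM in WT DMSO and 0.0956 in WT Tu. The part of all these markers in the levels of the respiratory genes was not tested.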

How the data were processed

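RNA of 9 libraries of primary mouse hepatocytes was measured. The authors deposited FPKM for 54532 genes, made with HISAT2 2.2.1 (genome build mm10) and featureCounts 1.5.0-p3, per the submitters' processing notes. The annotation release and strand setting are not given in the sources used here, so reads of overlapping or antisense genes cannot be told apart. In each library FPKM times gene length rose in steps of equal size, to which 100% of values could be matched (tolerance 0.001); these steps gave the fragments per gene. The deposited FPKM imply library sizes that are 0.948 to 1.07 times the fragment totals.

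Genes were kept where 3 or more libraries had an FPKM of 1 or above, and were fitted as log2(FPKM + 1) with limma 3.58.1 (R 4.3.3), all 9 libraries, 1 mean per group and an intensity trend. Tests were two-sided, with Benjamini-Hochberg adjustment over the 11858 genes tested and a threshold of 0.05. The pseudocount of 1 understates changes of low genes. Errors of log2 changes are SE and those of FPKM are SD. The steps were tested on simulated data.

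The members and lists were chosen with earlier results of these data known. One member enters the counts and is not reported singly here. Values per library are given, for each complex, for up to 4 members with the largest change among those called in WT Tu against WT DMSO and up to 4 in CKO Tu against WT Tu, for 6 reference members and for isoform sets. Up to 3 called genes were named from each other list. Shared 50-base words were counted in GENCODE M21 transcripts, and are given here for only some of the genes that have them.

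Alternatives were a pseudocount of 0.1, no filter, a filter at FPKM of 5, upper-quartile, quantile and total-fragment scaling, voom on recovered fragments, a fit without an intensity trend, one with a replicate block, one restricted to a comparison's own 2 groups, and each library left out. Removal of a GC trend and of a length trend (lowess, span 0.3) was added after seeing the data.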

Additional observations from a re-analysis of the deposited data

How the results depend on the processing

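Among the members called in a comparison and the 6 reference members, none reversed its direction in an alternative where either value was called. Other named genes were not checked in this way. For WT Tu against WT DMSO, 1 member was higher and 9 lower as reported. The lower count was 5 without a filter, 5 with only the 2 groups compared, 18 after upper-quartile scaling, 25 after quantile normalization and 34 after total-fragment scaling. The higher count was 2 with a filter at FPKM of 5, 0 with quantile normalization (3 at an unadjusted p under 0.05 in limma), 0 with total-fragment scaling (0 unadjusted), 4 with voom on recovered fragments, and 3 with either the GC trend or the length trend removed. Leaving out each library in turn gave 3 to 14 lower and 1 to 4 higher; the counts without WT Tu replicate 1 were 14 and 4, and without WT Tu replicate 2 the lower count was 14. Without WT DMSO replicate 1, 2 or 3 the lower counts were 4, 3 and 4. For CKO Tu against WT Tu, leaving out each library gave 11 to 23 lower (reported 15, and 23 without WT Tu replicate 1) and 5 to 8 higher. For CKO Tu against WT DMSO, the lower count of 21 became 34 with upper-quartile scaling, 32 with total-fragment scaling and 36 with only the 2 groups compared. The cause of these shifts was not tested. Scaling also moved the split of all genes: of those called in WT Tu against WT DMSO, 52.7% were higher as deposited, 46.6% with quantile normalization, 42.3% with upper-quartile and 31.5% with total-fragment scaling. The same replicate number in different groups did not pair the libraries (correlations of deviations between -0.097 and 0.021). With the replicate block, the counts were 1 higher and 10 lower, 5 and 14, and 6 and 21 in the 3 comparisons. Members with few fragments, such as Cox4i2 with as few as 3 in a library, are limited by depth; the levels of others rest on the gene length annotated, and 3 libraries a group limit the precision of every estimate.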
